A study of Mus musculus with 2 samples.

Results

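The cytosolic ribosomal protein genes were taken by symbol: rows listed in both count tables whose symbol begins with Rpl or Rps and a digit, without the Rps6k kinases and without symbols that end as numbered pseudogenes. The rule gave 80 genes of the 10198 listed in both tables, 47 of the large subunit (Rpl) and 33 of the small subunit (Rps). Of the 80, 7 are paralogues or no ribosomal protein: Rpl22l1, Rpl6l, Rpl7l1, Rpl36al, Rps27l and Rps27rt are copies or relatives of members, and Rps19bp1 encodes a binding partner of Rps19. Rplp0, Rplp1, Rplp2, Rpsa and Fau also encode ribosomal proteins but do not follow the symbol pattern, and they were kept apart.

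The cells were CD45-negative mouse lung cells, sorted by FACS from lungs taken on day 7 after mice received Labelling-4T1 into a vein; 4T1 is a mouse mammary carcinoma line. There were 2 groups, the niche cells and the distal lung cells, and both came from lungs of injected mice, so no uninjected lung enters the comparisons. The deposited data of the 2 groups are named CherryPositive and CherryNegative. Each group was 1 single-cell library, and the number of animals, their strain and age, and the gates of the sort are not given in the sources used here. Differences between the libraries therefore carry no replicate check and no p-value: every interval below is a 95% counting interval, which covers the counting of molecules and nothing else.

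A ribosome joins a large and a small subunit, each a core of ribosomal RNA covered by ribosomal proteins. The small subunit threads and decodes the messenger RNA, and the large subunit forms the peptide bond and lets the new chain out through its exit tunnel. The proteins are made in matched amounts, their messages are among the most abundant of any cell, and in mammals those messages begin with a run of pyrimidines, through which growth signals by way of mTOR set how strongly they are translated.

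After cells with fewer than 500 detected genes or more than 10% mitochondrial molecules were left out, 1423 niche cells and 1987 distal cells remained, with a median of 2975 unique molecules (UMIs) per niche cell and 1975 per distal cell. The 80 genes gave 774867 UMIs in niche cells and 601465 in distal cells. Cells were clustered without the ribosomal protein genes, so that their levels did not set the 18 clusters. By their markers the clusters formed mesenchymal-like (781 niche and 399 distal cells), endothelial-like (497 niche and 1307 distal) and epithelial-like (94 niche and 255 distal) classes, and 1 cluster led by Cd52, Coro1a and Rac2 (51 niche and 26 distal) stayed unnamed because only 3 of 10 immune markers are listed in the tables. The libraries shared 7 cell barcodes. RNA of alveolar type 2 cells was present outside its class: the 6 markers of that cell type summed to 419 counts per 1000000 (CPM) in niche and 2295 CPM in distal endothelial-like cells. Free RNA can add ribosomal protein molecules to every cell in the same way, and the amount could not be measured, since no cell type lacks these genes.

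The ribosomal protein genes took a larger share of the molecules in the niche library. Their summed share was 15.2% of UMIs in niche cells and 12.6% in distal cells, a 1.20-fold ratio and a log2 ratio of 0.27 (0.26 to 0.27). Over single cells the median share was 13.7% (quartiles 10.6% and 17.6%) in niche cells and 11.4% (quartiles 8.87% and 14.4%) in distal cells, so the ranges of single cells overlapped widely. Both subunits moved alike, with a log2 ratio of 0.27 for the large and 0.26 for the small subunit genes. The libraries differ in depth, and with each cell thinned to 1200 UMIs the shares were 14.9% in niche and 12.5% in distal cells, with 1 niche and 353 distal cells too shallow to enter.

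Within classes the ratio was small in mesenchymal-like and endothelial-like cells, large in epithelial-like cells and inverted in the cluster led by Cd52. Mesenchymal-like cells had a share of 14.6% in the niche and 13.1% in distal lung, a log2 ratio of 0.16 (0.15 to 0.17). The class held different cells in the 2 libraries, since the clusters led by Mustn1, Mdk, Cxcl9 and Pi16 made up most of it in the niche and those led by Slc7a10 and Mustn1 in distal lung. In endothelial-like cells the share was 12.7% in the niche and 11.7% in distal lung, a log2 ratio of 0.12 (0.11 to 0.13). Hbb-bs, a haemoglobin gene and the 1 erythroid marker in the tables, stood at 4159 CPM in niche and 3.88 CPM in distal endothelial-like cells. In the same cells the mitochondrially encoded genes summed to 27645 CPM in the niche and 22969 CPM in distal lung, and immediate early genes to 16445 CPM in the niche and 19611 CPM in distal lung. The share had a Spearman rho with the mitochondrial percentage of 0.39 over niche and 0.38 over distal endothelial-like cells. With 1000 genes required per cell the endothelial log2 ratio was 0.073, and the part of these measures in it was not tested. Epithelial-like cells had 24.1% in the niche and 13.3% in distal lung, a log2 ratio of 0.86 (0.85 to 0.87). In the cluster led by Cd52 the share was 29.6% in the niche and 36.2% in distal lung, a log2 ratio of -0.29 (-0.32 to -0.27).

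**Figure D1:**
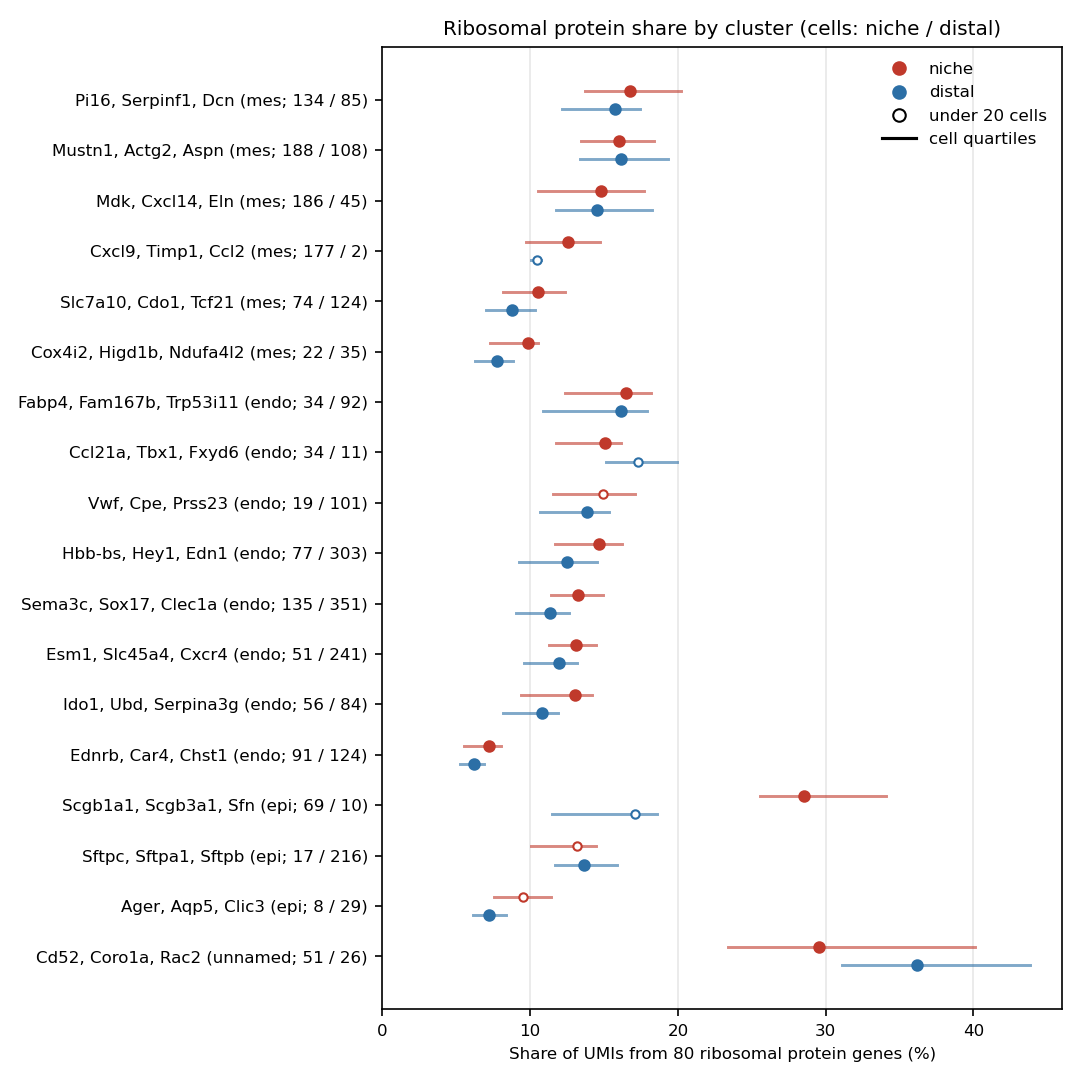
Share of UMIs from the 80 ribosomal protein genes in each cluster, niche above distal, with the quartiles over single cells as lines; cell numbers stand beside the names and open points mark fewer than 20 cells. The cluster led by Cd52 had the highest share and that led by Ednrb and Car4 the lowest in both libraries.

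Of the 12 clusters with 20 or more cells in both libraries, 10 had a higher share in the niche, 1 a lower one and 1 an interval that held 0, and the log2 ratios ran between -0.29 and 0.35. These clusters come from the same 2 libraries and do not repeat the comparison independently. Among capillary cells, those led by Ednrb and Car4, markers of the large capillary cell of the alveolus, had the lowest share, 7.23% in niche and 6.21% in distal cells. Endothelial cells led by Fabp4 had 16.5% in the niche and 16.1% in distal lung, more than 2-fold the level of the Car4 capillary cells in both libraries.

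Among fibroblasts, the adventitial cells led by Pi16 had 16.8% in the niche and 15.7% in distal lung, and the cells led by Mustn1, Actg2 and Aspn, which carry myofibroblast and smooth muscle markers, had 16.0% in the niche and 16.1% in distal lung. Alveolar fibroblast markers named 2 clusters. The one led by Slc7a10 and Tcf21 stood lower, at 10.5% in the niche and 8.76% in distal lung. The one led by Mdk had 14.8% in the niche and 14.5% in distal lung, so a low share was not general to alveolar fibroblasts. Pericytes, led by Cox4i2 and Higd1b, had 9.82% in the niche and 7.73% in distal lung, the largest ratio of the 12 clusters (log2 0.35, 0.29 to 0.40). In the plot of shares by cluster some of these types lie far apart and others close. Pi16 and Mustn1 cells differed less from each other than Pi16 cells did between the libraries. Slc7a10 cells and pericytes differed less from each other than either did between the libraries.

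Some cell types were nearly absent from 1 library. The cluster led by Cxcl9, Timp1 and Ccl2 had 177 niche cells with a share of 12.6% and 2 distal cells. The cluster led by Scgb1a1, Scgb3a1 and Sfn had 28.5% in 69 niche cells and 17.1% in 10 distal cells, whose single-cell shares ran up to 46.3% in the niche and 46.6% in distal lung. Alveolar type 2 cells, led by Sftpc, had 13.2% in 17 niche cells and 13.6% in 216 distal cells, and the type 1 cells led by Ager had 9.48% in 8 niche and 7.24% in 29 distal cells. The epithelial ratio thus joins different cells: 69 of 94 niche cells came from the Scgb1a1 cluster and 216 of 255 distal cells from the Sftpc cluster. Without the Scgb1a1 cluster the epithelial-like log2 ratio was -0.066 (-0.091 to -0.041), a setting chosen after seeing the data. The sources used here do not say whether the injected 4T1 carcinoma cells were gated out, and whether the epithelial-like cells, among them the Scgb1a1 cluster with its keratin genes Krt8 and Krt18, include any was not tested.

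Single genes were read with the same scale, CPM over the genes listed in both tables, and called 1.5-fold higher or lower where the ratio passed that fold with a counting interval clear of equal levels. Across all cells 3 of 80 genes were 1.5-fold higher in the niche, Rps2, Rpl12 and Rpl22l1, against 10.6% of all 10198 genes tested, and 0 were lower, against 15.5%. The fold threshold lies above the shift most members share: 76 of the 80 had a log2 ratio above 0, with a median of 0.28 and quartiles of 0.20 and 0.34, while the median over all genes was -0.08.

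Rps2 stood out among all members. It encodes a protein at the entry of the messenger RNA channel of the small subunit. Rps2 had 3012 CPM in the niche and 1506 CPM in distal cells, a log2 ratio of 1.0 (0.96 to 1.04). In mesenchymal-like cells it had 3132 CPM in the niche and 1838 CPM in distal lung, a log2 ratio of 0.77 (0.70 to 0.84). It was the only member above 0 in each of the 12 clusters, and its interval lay above 0 in 9 of them. Its ratio by cluster ran between 0.05 in the cluster led by Cd52 and 0.74 in pericytes.

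The next genes were Rpl22l1, Rpl12 and Rps26. Rpl22l1, the paralogue of the RNA-binding protein gene Rpl22, had 722 CPM in the niche and 458 CPM in distal cells, a log2 ratio of 0.66 (0.58 to 0.73), while Rpl22 itself had 0.24. Rpl12, part of the stalk base where elongation factors bind, had 984 CPM in the niche and 634 CPM in distal cells, a log2 ratio of 0.63 (0.57 to 0.70). Rps26, which touches the messenger RNA at the exit of its channel, had 1229 CPM in the niche and 832 CPM in distal cells, a log2 ratio of 0.56 (0.50 to 0.62).

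At the other end stood Rpl29, Rps19, Rps27 and Rpl21. Rpl29, a large subunit gene that mice can live without, was a low-count member, with 424 UMIs or 83.1 CPM in the niche and 540 UMIs or 113 CPM in distal cells, a log2 ratio of -0.45 (-0.64 to -0.26). It was below 0 in each of the 12 clusters, but its interval lay below 0 in only 1, the endothelial cluster led by Esm1, where 3 UMIs in the niche stood against 71 in distal cells. Rps19, the gene most often mutated in Diamond-Blackfan anaemia in humans, had 2576 CPM in the niche and 2700 CPM in distal cells, a log2 ratio of -0.07 (-0.10 to -0.03). Rps27, a zinc-binding small subunit gene, had 4707 CPM in the niche and 4833 CPM in distal cells, a log2 ratio of -0.04 (-0.06 to -0.01), and Rpl21 had 1856 CPM in niche and 1890 CPM in distal cells. These 4 genes did not share the higher level of the summed members.

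The other paralogues were spread over the same range. Rps27l had 479 CPM in the niche and 370 CPM in distal cells (log2 ratio 0.37), Rpl6l 264 CPM in niche and 216 CPM in distal cells (0.28), Rpl7l1 59.8 CPM in niche and 55.1 CPM in distal cells (0.12), Rps27rt 2864 CPM in niche and 2743 CPM in distal cells (0.06) and Rps19bp1 50.6 CPM in niche and 49.6 CPM in distal cells (0.03). Among genes with roles beyond the ribosome, Rps27a, which encodes ubiquitin fused to a ribosomal protein, had 2092 CPM in the niche and 1714 CPM in distal cells (0.29). Rpl13a, which in human cells can leave the ribosome to silence inflammatory messages, had 2352 CPM in niche and 1902 CPM in distal cells (0.31). Rpl10, a late joiner of the large subunit, had 3051 CPM in niche and 2596 CPM in distal cells (0.23), and Rps6, the target of the S6 kinases, 1685 CPM in niche and 1493 CPM in distal cells (0.17). None of these 9 genes passed 1.5-fold over all cells.

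**Figure D2:**
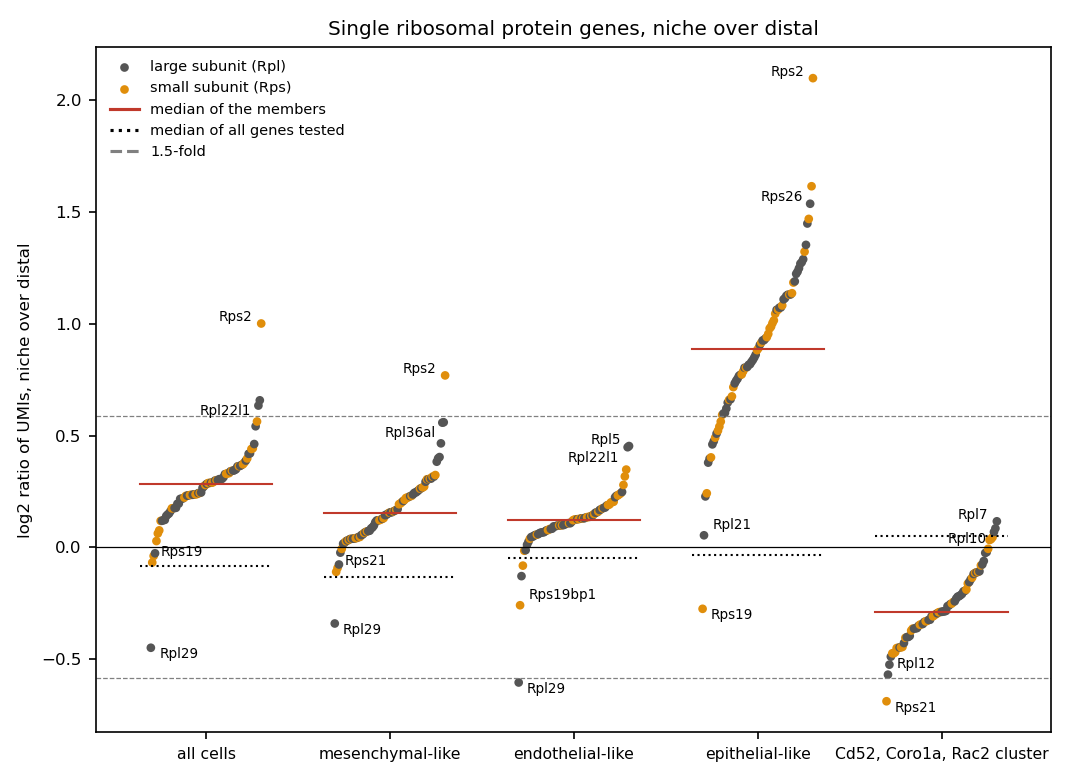
Log2 ratio of niche over distal for each ribosomal protein gene, ordered within all cells, the 3 classes and the cluster led by Cd52; red lines give the median of the members, dotted lines that of all genes tested, dashed lines 1.5-fold. Rps2 was highest in all cells, mesenchymal-like and epithelial-like cells, and the members of the epithelial-like class lay around 0.89.

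**Figure D3:**
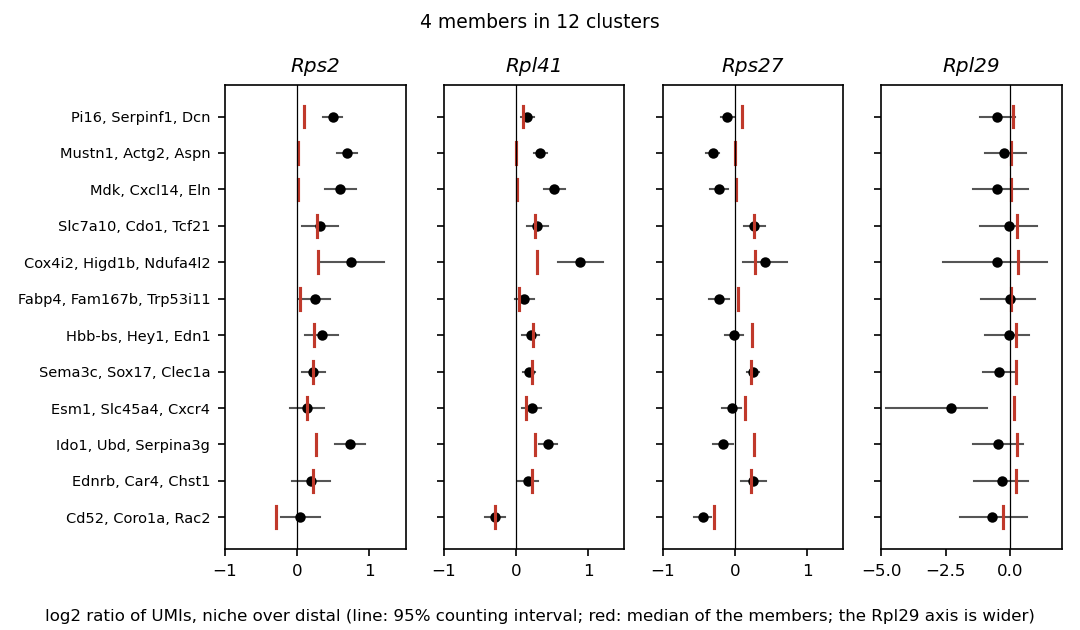
Log2 ratio of niche over distal of Rps2, Rpl41, Rps27 and Rpl29 in the 12 clusters with 20 or more cells in both libraries, with 95% counting intervals as lines and the median of the members as red marks; the Rpl29 axis is wider than the others. Rps2 lay to the right of 0 in all 12 clusters and Rpl29 to its left in all 12.

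The genes also differed in how much they added to the summed share. The most abundant members over both libraries were Rpl41, Rps27, Rps29 and Rpl37a, in counts of molecules tagged at their 3′ ends. Rpl41, the shortest ribosomal protein, had 6743 CPM in the niche and 5040 CPM in distal cells, a log2 ratio of 0.42 (0.40 to 0.44). Of the 2.56 percentage points between the niche and distal share, Rpl41 gave 0.170 points and Rps2 0.151 points, or 6.67% (Rpl41) and 5.90% (Rps2) of the difference. In mesenchymal-like cells Rpl41 gave 11.6% and Rps2 8.59% of the 1.51 points. Rps29 (log2 ratio 0.12) and Rpl37a (0.14) lay below the members' median.

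Windows of 45 bases around the start of transcription (30 before it and 15 from it on) are shown for genes at both ends of that order, since the pyrimidine run by which these messages are known sits there. Sequences are from RefSeq on GRCm38.p6, where 60 of the 80 genes had at least 1 window, and capitals mark the longest run of C and T that begins or ends within 10 bases of the start. Rps2 lies at chr17:24720033-24720077 (plus strand), Rpl12 at chr2:32961682-32961726 (plus), Rps26 at chr10:128626492-128626536 (minus), Rpl22l1 at chr3:28805478-28805522 (plus), Rpl41 at chr10:128549154-128549198 (minus), Rps27 at chr3:90213634-90213678 (minus) and Rps19, 1 of 3 starts, at chr7:24884562-24884606 (plus).
Rps2: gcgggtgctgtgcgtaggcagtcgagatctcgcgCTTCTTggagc
Rpl12: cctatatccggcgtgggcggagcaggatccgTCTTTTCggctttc
Rps26: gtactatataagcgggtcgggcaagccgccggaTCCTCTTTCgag
Rpl22l1: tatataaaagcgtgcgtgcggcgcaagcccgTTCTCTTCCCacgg
Rpl41: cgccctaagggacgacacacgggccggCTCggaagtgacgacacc
Rps27: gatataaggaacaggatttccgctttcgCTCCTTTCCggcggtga
Rps19: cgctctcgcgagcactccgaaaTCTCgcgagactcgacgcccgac

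Runs of this kind were common but not general among the members. A run of 8 or more C and T near the start was found in 40.8% of the members' 71 windows, against 14.6% of all 32851 windows. The letters CTTTCC on the gene's strand within 20 bases of the start were found in 15.5% of the members' windows and 1.9% of all. CCGGAAG, the core bound by ETS factors, was found on either strand of the 300-base promoter in 33.8% of the members' windows and 8.9% of all, and AAGATGGC, the core bound by YY1, in 11.3% of the members' windows and 2.7% of all. TATAAA in the 40 bases before the start was found in 1.4% of the members' windows and 2.3% of all. In the windows shown the run had 6 bases in Rps2, 10 in Rpl22l1, 7 in Rpl12 and 9 in Rps26, which were high. It had 9 in Rps27 and 4 at the Rps19 start shown, which were low, and 3 in Rpl41, which lay above the members' median. Whether the run goes with the ratio over the members was not tested. Where a window lacks a motif, only those letters are missing from it.

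Near-identical copies limit how far single levels can be trusted. Of 79 members with an annotated transcript, 66 shared a run of 75 identical bases within their last 300 bases with another annotated gene, and in 33 members at least 50% of the 75-base windows tested were shared. Rps2 shared 61.8% of its windows, with 46 pseudogenes among the genes it matched, Rpl29 shared 52.1%, with 42, and Rpl21 shared 39.1%, with 38. Shares at or above that of Rpl22l1, 56.6%, were also found for Rpl36al (64.0%), Rps6 (81.4%), Rpl10 (84.4%), Rps27a (85.4%) and Rpl35 (95.6%). Rps27 and Rps27rt share their ends with each other. Rpl12, Rps20 and Rpl37a were among the 13 that shared none. Molecules from shared ends may have been dropped or split in the authors' counting, so the levels of all members with shared ends are uncertain.

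In mesenchymal-like cells 1 of 80 genes was 1.5-fold higher in the niche, Rps2, against 7.09% of 8689 genes tested, and 0 were lower, against 13.8%. The members' median log2 ratio was 0.16, with 74 of 80 above 0, while all genes tested had a median of -0.13. Rpl22l1 had 816 CPM in the niche and 554 CPM in distal lung, a log2 ratio of 0.56 (0.42 to 0.70), and Rpl36al, the paralogue of Rpl36a, had 701 CPM in niche and 476 CPM in distal cells, also 0.56 (0.41 to 0.71). Rpl41 had 6347 CPM in the niche and 4598 CPM in distal lung, a log2 ratio of 0.46 (0.42 to 0.51). Rps21, a small subunit gene, had 1449 CPM in niche and 1562 CPM in distal cells (log2 -0.11), and Rpl35a, a large subunit gene, 2233 CPM in niche and 2353 CPM in distal cells (log2 -0.08). Immediate early genes, which tissue dissociation induces, summed to 20566 CPM in niche and 31476 CPM in distal mesenchymal-like cells. The long nuclear and mitochondrial RNAs used as quality marks summed to 63667 CPM in niche and 81067 CPM in distal cells. Of these marks Kcnq1ot1, Meg3, Malat1 and Neat1 were 1.5-fold lower in the niche. The 13 mitochondrially encoded genes went the other way, with 27348 CPM in niche and 25082 CPM in distal cells. Their part in the mesenchymal result was not tested.

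In endothelial-like cells 0 of 80 genes were 1.5-fold higher, against 3.06% of 8552 genes tested, and 1 was lower, Rpl29, against 4.43%. The members lay close together, with quartiles of 0.08 and 0.17 around a median of 0.12. Rpl29 had 80.3 CPM in the niche and 122 CPM in distal lung, a log2 ratio of -0.60 (-0.93 to -0.29). Rpl5, which with Rpl11 and the 5S RNA forms a particle that can bind Mdm2, had 385 CPM in the niche and 282 CPM in distal lung, a log2 ratio of 0.45 (0.29 to 0.62), while Rpl11 had 1512 CPM in niche and 1486 CPM in distal cells, a log2 ratio of 0.03 (-0.05 to 0.10). These partners of 1 particle therefore had different ratios in the same cells. Rps2 had 1741 CPM in the niche and 1368 CPM in distal lung, a log2 ratio of 0.35 (0.27 to 0.42).

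In epithelial-like cells 66 of 80 genes were 1.5-fold higher in the niche, against 22.1% of 4792 genes tested, and 0 were lower, against 18.7%. With the 100 most abundant other genes out of the denominator 38 were higher, 1 was lower, and the summed log2 ratio was 0.53 in place of 0.86. The share of all genes called with that denominator is not given here. The median log2 ratio was 0.89 for the members and -0.03 for all genes tested. Rps2 had 6320 CPM in the niche and 1478 CPM in distal lung, a log2 ratio of 2.1 (2.01 to 2.19). Rps26 had 2882 CPM in niche and 942 CPM in distal cells, a log2 ratio of 1.61 (1.5 to 1.73), Rpl12 had 1928 CPM in niche and 665 CPM in distal cells, 1.54 (1.39 to 1.68), and Rps20, a gene of the small subunit's head, had 3116 CPM in niche and 1127 CPM in distal cells, 1.47 (1.36 to 1.58). Rps19 was the only member below 0, with 3919 CPM in the niche and 4741 CPM in distal lung, a log2 ratio of -0.27 (-0.36 to -0.19). Rpl21 had 2892 CPM in niche and 2786 CPM in distal cells, a log2 ratio of 0.05 (-0.04 to 0.15).

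Cell identity moved with these epithelial values. The 6 alveolar type 2 markers summed to 49251 CPM in niche and 248485 CPM in distal epithelial-like cells. The 3 club cell markers in the tables summed to 37357 CPM in niche and 1138 CPM in distal epithelial-like cells. Not all 3 were detected in 25% of the cells of the Scgb1a1 cluster, so the marker rule did not name it club cells. It met that rule for proliferating cells only, of whose 5 markers 2 are in the tables, so those 2 were enough. With low-Malat1 cells left out, 36 niche cells stood against 246 distal cells, 3 members were 1.5-fold higher, against 12.2% of 4218 genes tested, 0 were lower, against 3.34%, and the summed log2 ratio was 0.28. Rps2 then had a log2 ratio of 0.80 (0.64 to 0.95), Rps20 0.68, Rpl12 0.55, Rps26 0.47 and Rps19 -0.30. Without the Scgb1a1 cluster 0 members were 1.5-fold higher, against 8.36% of 4017 genes tested, and 1 was lower, Rpl9, against 2.12%.

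In the unnamed cluster led by Cd52 77 of the 80 genes had the 30 UMIs needed for a call. None was 1.5-fold higher in the niche, against 13.9% of 678 genes tested, and 1 was lower, Rps21, against 3.54%. Rps21 had 2532 CPM in the niche and 4074 CPM in distal lung, a log2 ratio of -0.69 (-0.94 to -0.43). Rps27, the most abundant member there, had 13852 CPM in the niche and 18874 CPM in distal lung, and gave 7.60% of the difference of -6.61 percentage points. Rps2 had 3059 CPM in niche and 2960 CPM in distal cells, a log2 ratio of 0.05 (-0.22 to 0.32). The cluster held genes of B cells (Cd79b), platelets (Pf4) and myeloid cells (Fcer1g) among its 10 leading genes, and whether both libraries hold the same cells in it was not tested.

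Within a library the classes differed in most members where that cluster was involved. Over endothelial-like cells, the cluster led by Cd52 had 74 of 80 genes 1.5-fold higher in the niche library, against 7.79% of all genes tested, and 76 of 80 in the distal library, against 4.78%. Over mesenchymal-like cells it had 68 in the niche library, against 8.14%, and 75 in the distal library, against 7.4%. Between mesenchymal-like and endothelial-like cells the members' count lay below that of genes at large: 3 of 80 were 1.5-fold higher in mesenchymal-like cells in the niche library, against 17.4%, and 3 in the distal library, against 16.2%, while 0 were lower in either, against 24.6% for niche and 23.9% for distal cells. Epithelial-like over endothelial-like cells gave 70 of 80 in the niche library, against 11.8%, and 7 in the distal library, against 10.8%, where 1 member was lower, against 49.7%.

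The make-up of the pool, set as UMIs per 1000 UMIs of the 80 genes, also depended on cell type. The ratio of large to small subunit UMIs lay between 1.20 and 1.29 in the 3 classes of both libraries, but was 1.02 in niche and 0.99 in distal cells of the cluster led by Cd52. In single cells both subunits moved together: across cells of a class, the shares of the large and small subunit genes had a Spearman rho of 0.89 to 0.95, a description of cells that share a library and a depth. In the distal library Rps19 took 35.7 of 1000 in epithelial-like cells and 15.6 in endothelial-like cells, and Rpl12 took 10.3 in the cluster led by Cd52 and 4.43 in endothelial-like cells. Rps27l, the relative of Rps27 that p53 induces in human cells, took 3.08 in endothelial-like cells and 0.71 in the cluster led by Cd52, although Rps27 was at its highest in that cluster.

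In the niche library Rps2 took 26.2 of 1000 in epithelial-like, 21.5 in mesenchymal-like, 13.7 in endothelial-like cells and 10.3 in the cluster led by Cd52. Rps27 ran the other way, at 24.8 in epithelial-like cells and 46.9 in the cluster led by Cd52. Levels of different genes are compared here as tagged 3′ ends, which do not grow with gene length, and within the limits of shared ends given above.

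**Figure D4:**
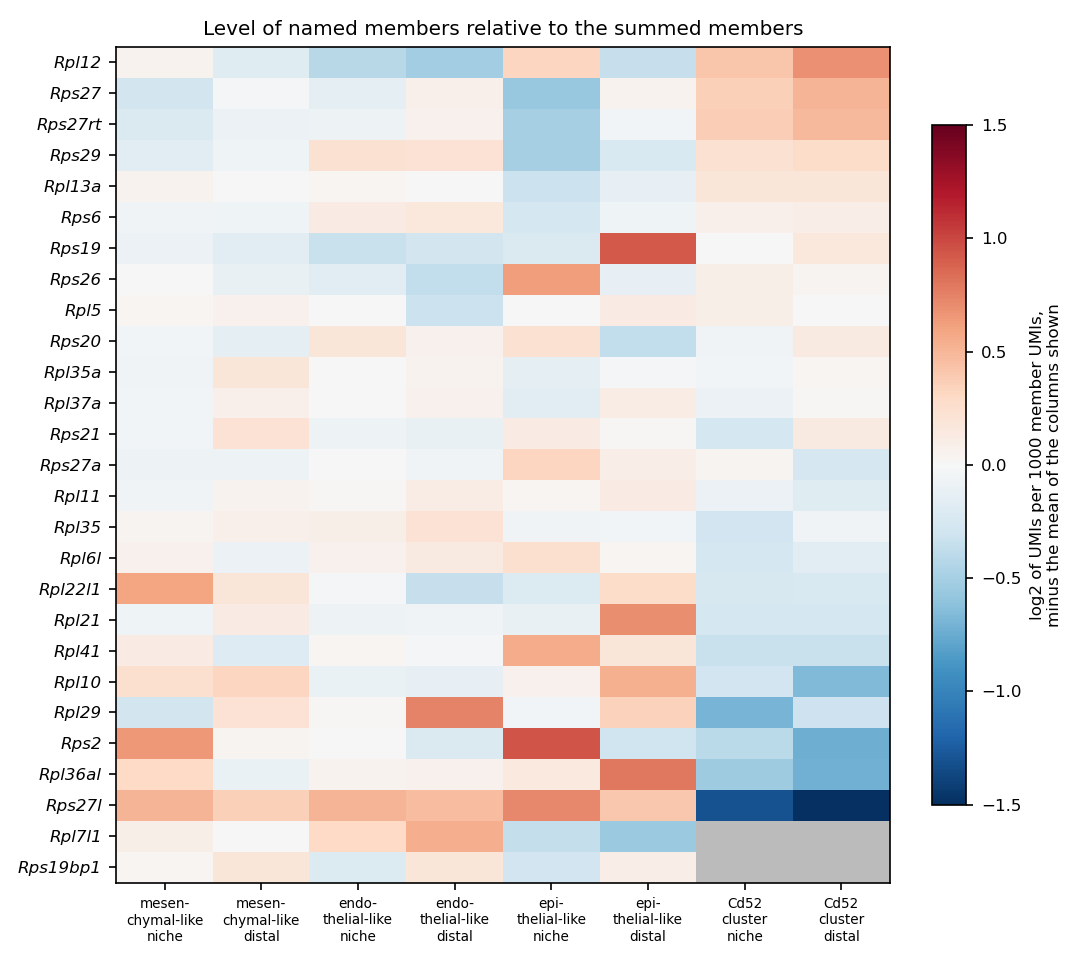
Level of the named genes relative to the summed members (log2 of UMIs per 1000 member UMIs, centred on the mean of the columns shown) in 3 classes and the cluster led by Cd52, niche left of distal; grey cells had fewer than 10 UMIs. Rps19 was high in distal epithelial-like cells, Rps2 in niche epithelial-like and mesenchymal-like cells, and Rps27l was low in the cluster led by Cd52.

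Cells with little Malat1, an abundant RNA kept in the nucleus, were set apart. A cell was called low-Malat1 where Malat1 made up less than 0.1 of its library's median share of the molecules outside the 80 genes, that is below 0.327% in the niche and 0.444% in distal lung. This took 148 niche cells and 45 distal cells. By class, 84 niche and 22 distal cells were mesenchymal-like, 58 niche and 9 distal cells epithelial-like, and 5 niche and 14 distal cells endothelial-like.

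Low-Malat1 cells had a higher ribosomal protein share in 5 of the 6 combinations of class and library. Among niche epithelial-like cells the share was 29.3% in low-Malat1 cells and 16.1% in other cells, a log2 ratio of 0.86 (0.84 to 0.88), and 43 of the 58 low-Malat1 cells lay above the other cells' upper quartile. Among niche mesenchymal-like cells it was 16.4% in low-Malat1 cells and 14.4% in other cells, a log2 ratio of 0.19 (0.17 to 0.20), with 28 of 84 above that quartile. The 5 niche endothelial-like cells had 14.4%, and the other cells of that class 12.7%. These 5 cells carried RNA of other cell types, with Hbb-bs at 46263 CPM, against 3866 CPM in the other cells. Their 6 alveolar type 2 markers summed to 21067 CPM, against 276 CPM. In distal lung the mesenchymal-like share was 18.8% in 22 low-Malat1 cells and 12.8% in other cells. The distal endothelial-like share was 18.7% in 14 low-Malat1 cells and 11.6% in other cells. The low-Malat1 cells were shallower, with a median of 1422 UMIs against 2099 in mesenchymal-like and 904 against 1728 in endothelial-like distal cells. The exception was distal epithelial-like cells, with 12.5% in 9 low-Malat1 cells and 13.3% in the others.

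The difference was also present within clusters. In the cluster led by Cxcl9 the share was 15.7% in 59 low-Malat1 cells and 11.8% in 118 other cells, and in the cluster led by Scgb1a1 it was 29.8% in 54 low-Malat1 cells and 23.0% in 15 other niche cells. In the cluster led by Mdk it was 18% in low-Malat1 and 14.6% in other cells of the niche library, and 19.5% in low-Malat1 and 13.6% in other cells of the distal library. Across the 177 niche cells of the Cxcl9 cluster the share and the Malat1 fraction had a Spearman rho of -0.48, and across the 94 niche epithelial-like cells -0.51, as descriptions of cells from 1 library. Malat1 itself is part of the denominator. With it taken out, a setting chosen after seeing the data, the log2 ratio of low-Malat1 over other niche cells was 0.81 in the epithelial-like and 0.13 in the mesenchymal-like class. With the median other gene set to a ratio of 1 it was 0.37 in the epithelial-like and 0.34 in the mesenchymal-like class, and with the Malat1 limit at 0.2 of the median it was 0.12 in the mesenchymal-like class.

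**Figure D5:**
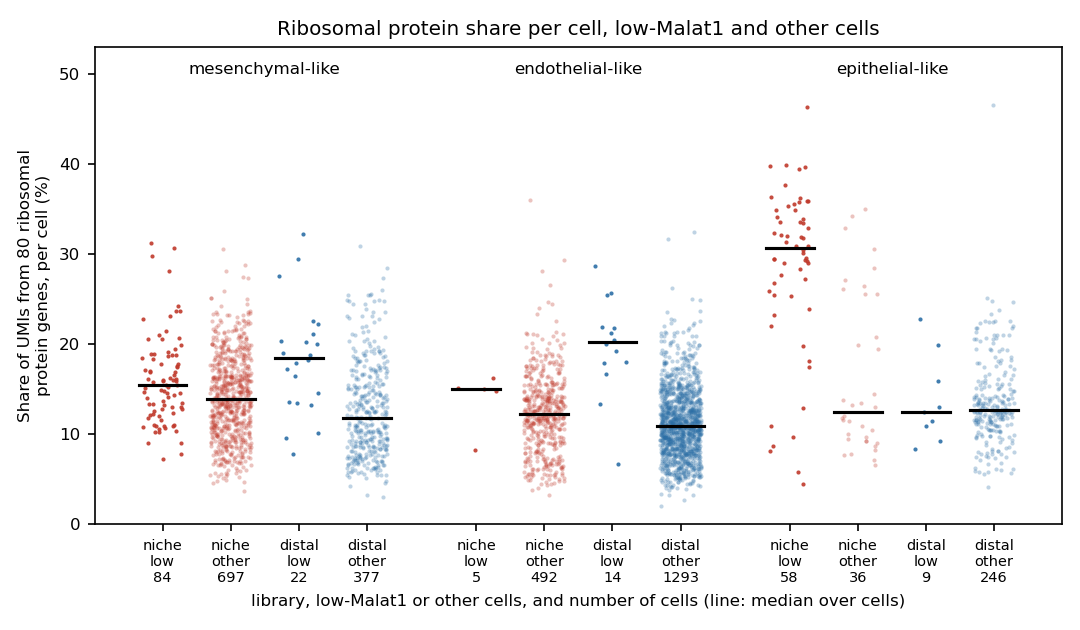
Share of UMIs from the 80 ribosomal protein genes in single cells of the 3 classes, low-Malat1 cells left of other cells and niche left of distal; lines give the median over cells and numbers the cells. Niche epithelial-like low-Malat1 cells had a median of 30.7%, against 12.5% in the other niche epithelial-like cells.

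The number of members higher in low-Malat1 cells was large in the epithelial-like and small in the mesenchymal-like class. In niche epithelial-like cells 59 of the 79 genes tested were 1.5-fold higher in low-Malat1 than in other cells, against 28% of 1588 genes tested, and 0 were lower, against 22.5%. Rps2 had 8726 CPM in low-Malat1 cells and 2576 CPM in other cells, a log2 ratio of 1.76 (1.61 to 1.92), and Rpl41 had 18699 CPM in low-Malat1 and 7198 CPM in other cells, 1.38 (1.28 to 1.47). Rps19 had 3960 CPM in low-Malat1 and 3855 CPM in other cells, a log2 ratio of 0.04 (-0.11 to 0.19), and Rpl22l1 738 CPM in low-Malat1 and 842 CPM in other cells. In niche mesenchymal-like cells 1 of 80 was higher, Rpl29, against 2.47%, and 0 were lower, against 9.84%. Rpl29 had 31 UMIs or 141 CPM in low-Malat1 cells and 209 UMIs or 70.2 CPM in other cells, so the gene that was low in the niche was high in its low-Malat1 cells. It was also higher in the epithelial-like class, with 45 UMIs or 180 CPM in low-Malat1 cells and 15 UMIs or 93.6 CPM in other cells. In the mesenchymal-like class Rps2 had 3787 CPM in low-Malat1 cells and 3083 CPM in other cells, a log2 ratio of 0.30 (0.19 to 0.40).

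Other measures moved with low Malat1. In niche epithelial-like cells the 3 club cell markers summed to 60163 CPM in low-Malat1 and 1871 CPM in other cells. The Scgb1a1 cluster, with 54 of the 58 low-Malat1 cells, did not meet the club cell rule, as given above. How this sum is spread over single cells is not given here. In the same niche epithelial-like cells the 6 alveolar type 2 markers summed to 261 CPM in low-Malat1 and 125481 CPM in other cells. Lamp3 and Slc34a2 were at 0 in the low-Malat1 cells. Cell cycle genes summed to 1980 CPM in low-Malat1 and 636 CPM in other cells, and immediate early genes to 1868 CPM in low-Malat1 and 10709 CPM in other cells. In niche mesenchymal-like cells the median depth was 1953 UMIs in low-Malat1 and 3758 UMIs in other cells, immediate early genes summed to 8419 CPM in low-Malat1 and 21460 CPM in other cells, and mitochondrially encoded genes to 34100 CPM in low-Malat1 and 26851 CPM in other cells. The part of these measures in the share was not tested. Whether a cell had lost nuclear RNA or made less Malat1 cannot be told apart in these counts.

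Leaving out low-Malat1 cells changed the comparison of the libraries mainly in epithelium. Without them the log2 ratio of niche over distal was 0.19 over all cells, 0.17 in mesenchymal-like and 0.12 in endothelial-like cells. Between low-Malat1 cells alone the mesenchymal-like share was 16.4% in 84 niche and 18.8% in 22 distal cells, a log2 ratio of -0.19 (-0.23 to -0.16). The 2 sides held different cells. Of the niche cells 59 came from the Cxcl9 cluster, which had 0 low-Malat1 distal cells. The distal cells were 12 of the Mdk and 10 of the Pi16 cluster. Between low-Malat1 cells of the Mdk cluster the log2 ratio was -0.12 (-0.18 to -0.06), and of the Pi16 cluster 0.03 (-0.03 to 0.09). Without low-Malat1 cells Rps2 had a log2 ratio of 0.83 over all cells, below its 1.0 with them, and 0.76 in mesenchymal-like cells, against 0.77 with them.

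Of the 5 ribosomal protein genes kept apart, 3 were 1.5-fold higher in the niche over all cells, against 10.6% of all genes tested. Rpsa, which encodes a small subunit protein, had 1317 CPM in the niche and 768 CPM in distal cells, a log2 ratio of 0.78 (0.72 to 0.84). The stalk genes Rplp1 and Rplp0 had log2 ratios of 0.69 (0.65 to 0.72) and 0.67 (0.62 to 0.71), and Rplp2, the other stalk gene, 0.42 (0.37 to 0.46). Fau, which encodes a ubiquitin-like protein fused to a small subunit protein, had 2334 CPM in the niche and 2267 CPM in distal cells, a log2 ratio of 0.04 (0.004 to 0.08). In epithelial-like cells all 5 were 1.5-fold higher, against 22.1% of all genes tested. In mesenchymal-like and endothelial-like cells 0 of 5 passed, against 7.09% in mesenchymal-like and 3.06% in endothelial-like cells.

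Groups of members by their place or role in the ribosome showed few calls over all cells. Of all genes tested 10.6% were 1.5-fold higher over all cells and 22.1% in epithelial-like cells. Of 10 genes that line the exit tunnel or its rim, such as Rpl4 and Rpl17, 0 were 1.5-fold higher over all cells and 10 in epithelial-like cells. Of 7 at the messenger RNA channel or decoding side 1 was higher over all cells, Rps2, and 5 in epithelial-like cells. Of 18 genes mutated in Diamond-Blackfan anaemia in humans, 0 were higher over all cells and 15 in epithelial-like cells. Of 3 genes listed here for the 5S particle and Mdm2 binding, Rpl5, Rpl11 and Rpl23, 0 were higher over all cells and 3 in epithelial-like cells. The list was not made to hold every member that can bind Mdm2. Over all cells the median log2 ratio was 0.25 for the exit tunnel genes, 0.28 for the channel genes and 0.24 for the anaemia genes. It was 0.39 for the 3 genes of the Mdm2 list, against 0.28 for the 80 members. In epithelial-like cells the median was 1.12 for the exit tunnel genes, 0.79 for the channel genes and 0.82 for the anaemia genes. It was 0.77 for the 3 genes of the Mdm2 list, against 0.89 for the 80 members.

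Genes that build ribosomes had a higher median than the ribosomal proteins in all cells and in mesenchymal-like cells, 0.43 in both. Of 37 ribosome biogenesis genes 13 were 1.5-fold higher over all cells, against 10.6% of all genes tested, and 0 were lower, against 15.5%. In mesenchymal-like cells 9 were higher, against 7.09% of all genes tested, and 1 was lower, Tsr1, against 13.8%. The 9 included Fbl and Nop2, which modify ribosomal RNA, and Gnl3, a nucleolar GTP-binding protein. In endothelial-like cells 2 of 35 tested were higher, against 3.06%. In epithelial-like cells 15 of 23 were higher, against 22.1%, among them the nucleolar proteins Ncl and Npm1. Of 7 elongation factors and related proteins 1 was higher over all cells, Eif5a, and 5 in epithelial-like cells, among them Eef1a1. Of 30 initiation factors and related proteins 2 were higher over all cells, Eif2s1 and Eif4ebp1. Eif4ebp1 encodes a protein that binds Eif4e and is not itself an initiation factor. Of the 29 on that list tested in epithelial-like cells, 16 were higher and 1, Eif4a2, was lower.

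Mitochondrial ribosomal proteins, which belong to a separate ribosome, had 3 of 76 genes 1.5-fold higher over all cells, below the 10.6% of all genes tested. None was lower, against 15.5%, and their median was 0.11. In epithelial-like cells 33 of 68 tested were higher, against 22.1%, and 1 was lower, against 18.7%. Of 13 genes of the Myc and mTOR pathways 1 was higher over all cells, Myc, and 3 were lower, Tsc1, Rps6ka1 and Mycn. Of 11 cell cycle genes measured, 4 were higher over all cells, and 7 of 7 tested in epithelial-like cells, with a median of 2.98. All these counts stand beside the shares of all genes tested in the same cells. Over all cells 10.6% were higher and 15.5% lower, and in epithelial-like cells 22.1% were higher and 18.7% lower. The lists describe these 2 libraries only.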

How the data were processed

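Per the labels' protocols, lungs were dissociated and single-cell libraries made with the Chromium 3′ kit and sequenced to a target of 50000 reads per cell. Cell Ranger 2.1.1, R 3.4.1 and the build mm10 are named in the submitters' processing notes, with no role or order. The deposited values are raw whole-number UMI counts per gene and cell barcode: 1473 barcodes and 5283584 UMIs in the niche table (1245 to 9784 per barcode) and 1996 barcodes and 4791701 UMIs in the distal table (685 to 7051). Filters the authors applied to cells or genes are not given in the sources used here, but every listed gene has at least 10 UMIs in the niche table and 12 in the distal table.

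Kept cells had 500 genes or more and no more than 10% of UMIs from mitochondrial genes. They were clustered with scanpy 1.11.5 (2000 variable genes without ribosomal protein genes, 20 components, 15 neighbours, Leiden resolution 1). Doublets called by Scrublet (13 niche and 21 distal cells) were kept. Shares and CPM are over the 10198 genes in both tables. Ratios have exact conditional binomial 95% intervals, with 0.5 UMI added to the point value, and shares in the tables have Clopper-Pearson intervals. PCR and sampling of animals are outside these intervals. Calls need 30 UMIs over the cells compared. On simulated counts the intervals were tested and covered the true ratio close to their stated level. Pseudogene rows (12 per table, 31581 niche and 22989 distal UMIs) were left out.

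Named genes are the 4 highest and 4 lowest members in all cells and each class with 100 UMIs or more, ranked by the interval bound nearest the members' median, the 4 most abundant, the 4 most variable over classes in the distal library, the paralogues, and Rpl5, Rpl11, Rpl10, Rpl13a, Rps6, Rps19 and Rps27a for their roles. Other members are named where a table of contributions, low-Malat1 cells or promoters turns on them. The members, the gene lists and the low-Malat1 rule were chosen with earlier results of these data known. Some planned results, among them 1 alternative choice of members, are not reported here.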

Additional observations from a re-analysis of the deposited data

Results flagged for a closer look

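The summed ribosomal protein share was lower in the niche than in distal lung in the cluster led by Cd52, Coro1a and Rac2, with 29.6% in 51 niche cells and 36.2% in 26 distal cells, a log2 ratio of -0.29. In the mesenchymal-like, endothelial-like and epithelial-like classes the ratio had the opposite sign. The difference between the cluster led by Cd52 and the classes was not tested, since each side is 1 library. Of the 77 genes tested in the cluster led by Cd52, 71 lay below 0.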

How the results depend on the processing

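No paired analysis was possible because each group is 1 library, and for the same reason no replicate could be left out. Log2 ratios of the share, niche over distal, are given for all, mesenchymal-like (M), endothelial-like (E) and epithelial-like (P) cells, and LM and LP are low-Malat1 over other niche M and P cells. With 1000 genes per cell: all 0.24, M 0.19, E 0.073, P 0.90, LM 0.22, LP 0.95. With no filter on cells: all 0.25. Thinned to 1200 UMIs: all 0.25, M 0.14, E 0.10, P 0.83, LP 0.79. Without the 100 most abundant other genes: all 0.22, E 0.13, P 0.53, LM 0.23, LP 0.72, with 38 P genes higher and 1 lower. With the median other gene, which stood at 0.49 in LP and -0.15 in LM, set to a ratio of 1: all 0.34, M 0.22, E 0.16, P 0.76, LM 0.34, LP 0.37, with 5 genes higher in all cells, 3 in M and 0 lower in E. Without low-Malat1 cells: all 0.19, M 0.17, P 0.28, with 3 P genes higher and 1 gene lower in all cells. At Leiden resolution 2: M 0.17, P 0.80, with 2 M genes higher. With clusters weighted alike (no value for P): M 0.11, E 0.17. Without paralogues: P 0.87.

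At 2-fold, 1 gene was higher in all cells, 0 in M and 30 in P, and 0 lower in E. With a threshold 25% above equality in place of 1.5-fold, 27 were higher and 1 lower in all cells, 8 higher in M and 3 in E. Relative to the members' median, 1 was higher and 1 lower in all cells, 3 higher and 4 lower in P. Counts of genes at changed settings stand here without a share over all genes. Exceptions are P without low-Malat1 cells and P without the Scgb1a1 cluster, whose shares are given above. The other counts are not read as results about the members. A Malat1 limit of 0.2 of the median gave LM 0.12, and a limit of 0.05 LM 0.21 and LP 0.63. Added after seeing the data: with Rplp0, Rplp1, Rplp2, Rpsa and Fau, all had 0.28, P 0.91, LM 0.20 and LP 0.90, with 6 genes higher in all cells, without Malat1 in the denominator, all had 0.25, M 0.13, E 0.11, P 0.84, LM 0.13 and LP 0.81, and without low-Malat1 cells and the Cxcl9 cluster M had 0.24 and 2 genes higher. Without the Scgb1a1 cluster the sign of P turned (-0.066), with 0 genes higher and 1 lower, and so did Rpl5 (-0.39), Rps21 (-0.39), Rps6 (-0.23), Rpl35a (-0.10), Rps29 (-0.078), Rpl11 (-0.074) and Rpl35 (-0.036) in P. Rpl5 in P also turned without low-Malat1 cells (-0.088). Apart from the cells left out, the cause was not tested. Leaving out doublets, taking mitochondrial genes out of the denominator, clustering with the members and other UMI minimums moved none of these results beyond their intervals or 1.5 times their counts.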
